A study of Mus musculus with 6 samples.

Results

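The 7 genes described are all known from the mouse epiblast around and after implantation, namely Fgf5, Otx2, Pou3f1, Zic2, Zic5, Sall2 and Grhl2. They were taken from the deposited table by gene symbol, and all 7 were found among the 28584 symbols of the table. All 7 also passed the filter for low expression, among 18556 genes tested. RNA-seq was carried out on mouse embryonic stem cells (mESCs) of a single line derived from C57BL/6X129S6 blastocysts, taken at passage 10 of growth in 3 media. Cells in basal medium alone are called -LIF-ESCs. Cells given 1000 U/mL leukaemia inhibitory factor are called LIF-ESCs, and cells given 10 ng/mL oncostatin M are called OSM-ESCs. All groups had been grown first on inactivated mouse embryonic fibroblast feeder cells in medium with serum and LIF, and all media held serum. LIF was thus withdrawn from -LIF-ESCs, and words such as rose and fell below compare levels with that group, not changes over time. Each group had 2 libraries, which the study calls biological replicates. Neither the labels nor the study's methods say whether they were separate cultures of the line, so p-values measure only the spread between these samples.

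The naive state of the pre-implantation epiblast is held in culture by LIF, which acts through the gp130 receptor chain and STAT3, and oncostatin M belongs to the same cytokine family. On leaving the naive state, cells pass through a formative state and then a primed state that resembles the post-implantation epiblast. Fgf5, Otx2 and Pou3f1 are classic markers of that passage. The Zic, Sall and Grhl families are transcription factors, of which only certain members are usually counted as formative or primed genes.

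The 6 libraries held between 20712941 and 28994417 reads, recovered from exon lengths and the deposited TPM, a transcript abundance scaled to length and to a fixed library total. Differences were tested with limma on log2(TPM + 1), a scale on which changes of low genes are understated. A gene was called when its adjusted p was below 0.05 and its mean differed at least 2-fold on that scale. All-gene medians lay 0.17 above -LIF-ESCs in LIF-ESCs and 0.18 above in OSM-ESCs, and 0.01 above LIF-ESCs in OSM-ESCs, in log2 units, so small differences are to be read against those shifts. A single label, the extraction protocol, refers to ovaries where the other labels name embryonic stem cells. The labelled cell type was checked on 6 core pluripotency genes, whose summed level was 1800 to 1805 TPM in -LIF-ESCs, 2785 to 2902 TPM in LIF-ESCs and 2760 to 2791 TPM in OSM-ESCs. In bulk RNA, fewer cells of a type and less RNA per cell cannot be told apart.

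The 7 genes did not move as a group. Fgf5, Otx2, Pou3f1, Zic2 and Sall2 had their highest levels in -LIF-ESCs, whereas Zic5 and Grhl2 had their lowest levels there. Summed over the 7 genes, the level was 171 and 172 TPM in the -LIF-ESCs libraries, 109 and 108 TPM in LIF-ESCs, and 123 and 116 TPM in OSM-ESCs. TPM is scaled to exon length, so levels can also be ordered between genes. In -LIF-ESCs the order of mean TPM was Zic2, Pou3f1, Otx2, Fgf5, Zic5, Sall2 and Grhl2, and only the neighbours Fgf5 and Zic5 overlapped in their library values. In LIF-ESCs the order was Zic2, Zic5, Pou3f1, Otx2, Grhl2, Sall2 and Fgf5, with no overlap between neighbours. OSM-ESCs had the order Zic2, Pou3f1, Zic5, Otx2, Grhl2, Sall2 and Fgf5, in which only Pou3f1 and Zic5 overlapped. Fgf5 thus stood at place 4 in -LIF-ESCs and last in both cytokine groups, and Zic2 stood first in all 3 groups.

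**Figure D1:**
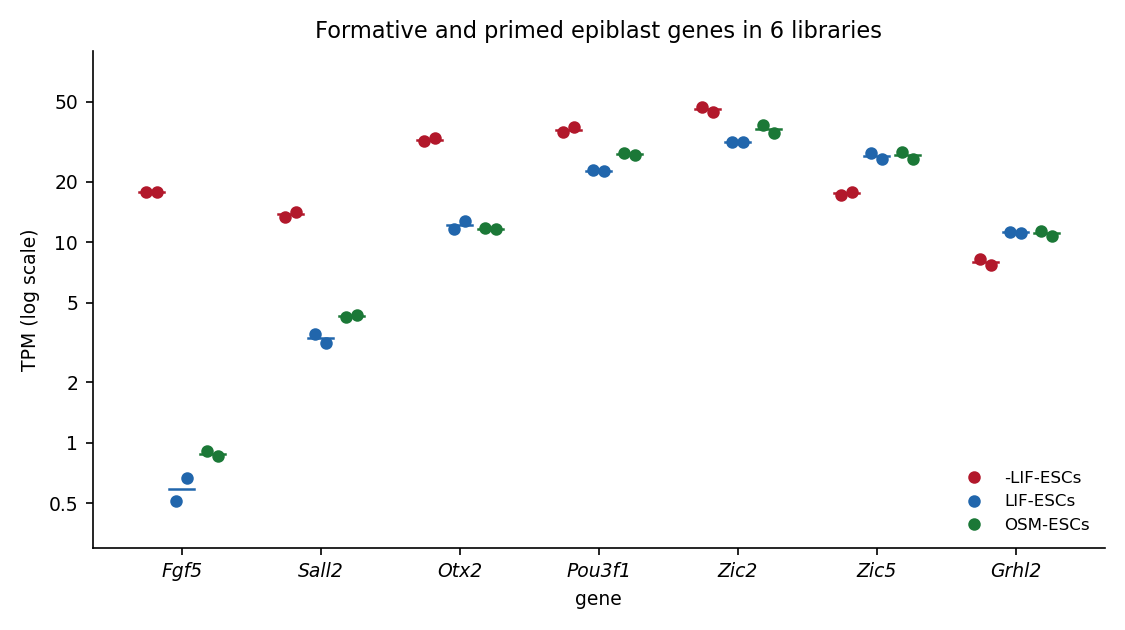
Level of each of the 7 genes in TPM on a log axis (vertical) in the 2 libraries of -LIF-ESCs, LIF-ESCs and OSM-ESCs (points), with the group mean as a short line. 5 genes are highest in -LIF-ESCs, with Fgf5 at 17.7 TPM there against less than 1 TPM elsewhere, while Zic5 and Grhl2 are lowest there.

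Fgf5 encodes a secreted fibroblast growth factor that is switched on in the epiblast after implantation. It was 17.7 and 17.7 TPM in the 2 -LIF-ESCs libraries (502 and 413 reads), 0.511 and 0.665 TPM in LIF-ESCs (12 and 15 reads), and 0.91 and 0.857 TPM in OSM-ESCs (23 and 26 reads). Both -LIF-ESCs libraries were far above all 4 cytokine libraries, and the LIF-ESCs and OSM-ESCs values did not overlap either. Mean TPM was 30.2-fold higher in -LIF-ESCs than in LIF-ESCs and 20.1-fold higher than in OSM-ESCs. On the log2(TPM + 1) scale Fgf5 was lower by -3.56 (SE 0.10, 95% interval -3.82 to -3.31, limma adjusted p = 8.92e-06) in LIF-ESCs. In OSM-ESCs the difference was -3.31 (SE 0.10, 95% interval -3.57 to -3.06, limma adjusted p = 1.02e-05). Counted from the most negative, this put Fgf5 at position 44 of 18556 genes in LIF-ESCs and at position 51 in OSM-ESCs. Fgf5 was below 1 TPM in all 4 cytokine libraries, so it passed the expression filter of 1 TPM only through -LIF-ESCs, where it was high.

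Fgf5 lies on the plus strand of chromosome 5, at chr5:98254184-98277030 in GRCm38 (ENSMUSG00000029337.2). Its RefSeq promoter window is shown because Fgf5 carried the widest difference of the 7. The window runs from 250 bases before the annotated start to 50 after it, 5′ to 3′ on the plus strand, at chr5:98253934-98254233 in GRCm38.p6. Capitals mark a match to GGGCGG on the reverse strand at bases -74 to -69 from the start, and a match to TATAAA at bases 35 to 40 after it.
Fgf5: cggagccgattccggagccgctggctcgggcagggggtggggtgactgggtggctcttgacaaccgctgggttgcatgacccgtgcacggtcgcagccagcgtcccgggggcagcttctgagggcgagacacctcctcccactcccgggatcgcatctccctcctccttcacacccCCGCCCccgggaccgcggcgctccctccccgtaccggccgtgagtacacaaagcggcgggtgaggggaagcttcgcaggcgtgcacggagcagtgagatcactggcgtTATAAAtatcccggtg
The window is 68.3% G or C and holds 29 CpG dinucleotides, at most which number is found in 88.3% of the 32851 windows of the same length, whose medians are 52.7% and 7.

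Otx2 and Sall2 were the other genes of the 7 that were called lower in both cytokine groups. Otx2 is a homeobox transcription factor of the epiblast and later of the forebrain. It was 32.0 and 33.0 TPM in the -LIF-ESCs libraries, 11.6 and 12.7 TPM in LIF-ESCs, and 11.8 and 11.6 TPM in OSM-ESCs. The -LIF-ESCs values stood well clear of the other 4, which overlapped each other. Mean TPM was 2.68-fold higher in -LIF-ESCs than in LIF-ESCs and 2.77-fold higher than in OSM-ESCs. The log2 difference was -1.35 (SE 0.06, limma adjusted p = 3.20e-05) in LIF-ESCs and -1.40 (SE 0.06, limma adjusted p = 2.80e-05) in OSM-ESCs.

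Otx2 lies on the minus strand at chr14:48657677-48673819 in GRCm38 (ENSMUSG00000021848.16), and RefSeq gave it 4 promoter windows. The third is shown because it alone among the 8 windows, found for only 4 of the 7 genes, holds TTCNNNGAA, the palindrome that STAT factors bind. It lies inside the annotated span of the gene, at chr14:48665060-48665359 in GRCm38.p6, and is printed 5′ to 3′ on the minus strand. Capitals mark GGATTA, a core that Otx factors bind, at bases -211 to -206 from the start, and TTCNNNGAA at bases -113 to -105.
Otx2: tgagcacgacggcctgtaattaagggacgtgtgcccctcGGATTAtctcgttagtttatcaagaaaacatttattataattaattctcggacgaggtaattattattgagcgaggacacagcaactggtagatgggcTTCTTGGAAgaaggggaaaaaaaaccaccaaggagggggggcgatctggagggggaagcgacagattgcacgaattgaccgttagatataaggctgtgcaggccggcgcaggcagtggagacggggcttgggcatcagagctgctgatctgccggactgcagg
TTCNNNGAA is found in 8.3% and GGATTA in 7.06% of all 32851 windows, and a match says nothing of binding.

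Sall2 is a zinc-finger transcription factor of the spalt family, at chr14:52311172-52328762 on the minus strand (ENSMUSG00000049532.11). It was 13.4 and 14.2 TPM in the -LIF-ESCs libraries, 3.49 and 3.14 TPM in LIF-ESCs, and 4.25 and 4.36 TPM in OSM-ESCs. The 3 groups did not overlap. The 4.15-fold excess of mean TPM over LIF-ESCs corresponded to a log2 difference of -1.77 (SE 0.08, limma adjusted p = 3.35e-05). Against OSM-ESCs the excess was 3.2-fold, with a log2 difference of -1.48 (SE 0.08, limma adjusted p = 5.62e-05). These values placed Sall2 between Fgf5 and Otx2 in size of change in both comparisons.

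Pou3f1 and Zic2 differed in the same direction by less than 2-fold. Pou3f1 (also called Oct6) is a POU-domain transcription factor, at chr4:124656807-124660655 on the plus strand (ENSMUSG00000090125.3). It was 35.3 and 37.4 TPM in the -LIF-ESCs libraries, 22.8 and 22.7 TPM in LIF-ESCs, and 27.7 and 27.3 TPM in OSM-ESCs. Levels fell into 3 separate groups, highest in -LIF-ESCs and lowest in LIF-ESCs. The log2 difference was -0.65 (SE 0.05, limma adjusted p = 0.00015) in LIF-ESCs and -0.39 (SE 0.05, limma adjusted p = 0.00102) in OSM-ESCs.

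Zic2, a zinc-finger transcription factor, lies at chr14:122475435-122479852 on the plus strand (ENSMUSG00000061524.8). It was 47.2 and 44.6 TPM in the -LIF-ESCs libraries, 31.6 and 31.5 TPM in LIF-ESCs, and 38.3 and 35.2 TPM in OSM-ESCs. The groups again did not overlap and kept the order seen for Pou3f1. The log2 difference was -0.53 (SE 0.06, limma adjusted p = 0.000654) in LIF-ESCs and -0.31 (SE 0.06, limma adjusted p = 0.00481) in OSM-ESCs. Rescaling each library by its median ratio to the others, which removes the all-gene shift, moved the OSM-ESCs value of Zic2 to -0.50.

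Zic5 and Grhl2 differed in the opposite direction, and neither reached 2-fold. Zic5 is a zinc-finger factor of the same family as Zic2, at chr14:122456795-122465677 on the minus strand (ENSMUSG00000041703.7). It was 17.2 and 17.8 TPM in the -LIF-ESCs libraries, 27.8 and 26.1 TPM in LIF-ESCs, and 28.3 and 26.0 TPM in OSM-ESCs. Both -LIF-ESCs libraries were below the other 4, which overlapped. The log2 difference was 0.59 (SE 0.06, limma adjusted p = 0.000572) in LIF-ESCs and 0.60 (SE 0.06, limma adjusted p = 0.00053) in OSM-ESCs.

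Grhl2 is a grainyhead-like transcription factor that controls epithelial genes, at chr15:37233036-37363569 on the plus strand (ENSMUSG00000022286.16). It was 8.27 and 7.71 TPM in the -LIF-ESCs libraries, 11.3 and 11.1 TPM in LIF-ESCs, and 11.4 and 10.8 TPM in OSM-ESCs. Its -LIF-ESCs values were the lowest of the 6, and the cytokine groups overlapped. The log2 difference was 0.44 (SE 0.07, limma adjusted p = 0.00212) in LIF-ESCs and 0.43 (SE 0.07, limma adjusted p = 0.00236) in OSM-ESCs. With libraries rescaled to a common median ratio, the same differences were 0.29 (limma adjusted p = 0.00897) and 0.26 (limma adjusted p = 0.0125).

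Zic2 and Zic5 are neighbours transcribed away from each other, with annotated starts 9.76 kb apart, yet their levels differed in opposite directions. The ratio of Zic2 to Zic5 in TPM was 2.74 and 2.51 in the -LIF-ESCs libraries. It was 1.14 and 1.21 with LIF and 1.36 and 1.35 with OSM. This ratio within a library does not depend on library scaling. Its 3 groups did not overlap, which restates the differences of the 2 genes and is no separate evidence. The transcript 2610035F20Rik, annotated between the 2 genes and singled out after its values were seen, was 4.77 and 5.07 TPM in -LIF-ESCs, 4.26 and 3.63 TPM in LIF-ESCs, and 4.97 and 5.08 TPM in OSM-ESCs. It differed from -LIF-ESCs by -0.26 in log2 units with LIF (limma adjusted p = 0.0576) and by 0.03 with OSM (limma adjusted p = 0.831). The Zic5 promoter window, which faces that interval, is shown for this arrangement, at chr14:122465609-122465908 in GRCm38.p6, 5′ to 3′ on the minus strand. Capitals mark GGGCGG at bases 41 to 46 after the start.
Zic5: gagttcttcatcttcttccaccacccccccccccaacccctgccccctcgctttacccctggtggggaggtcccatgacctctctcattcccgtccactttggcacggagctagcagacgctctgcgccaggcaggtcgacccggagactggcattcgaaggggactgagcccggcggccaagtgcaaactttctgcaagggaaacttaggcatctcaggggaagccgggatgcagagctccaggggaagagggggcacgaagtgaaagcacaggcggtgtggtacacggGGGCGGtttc
The window is 62.7% G or C with 15 CpG dinucleotides, a number not exceeded in 67% of all windows. Of the 7 motifs searched on both strands in the 8 windows of Fgf5, Otx2, Zic5 and Sall2, ATGCAAAT (found in 1.74% of all windows) and AACNGGTT (2.09%) had no match. TATAAA (13.6% of all windows) matched in Fgf5, in Otx2 window 1 and in Sall2 window 1, and CCAAT (37.4%) matched in Otx2 window 2 and Sall2 window 1. GGGCGG, found in 35.7% of all windows, matched only in the Fgf5 and Zic5 windows among the 8.

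In LIF-ESCs against -LIF-ESCs, 3 of the 7 genes were called lower and 0 higher, where 8.09% of all genes tested were called lower and 13.3% higher. At an adjusted p below 0.05 without a fold limit, 5 were lower and 2 higher, against 25.9% and 42.2% of all genes. In OSM-ESCs against -LIF-ESCs the counts were also 3 called lower (background 7.86%) and 0 called higher (background 14.2%). Without the fold limit they were 5 lower (background 25.4%) and 2 higher (background 42.9%). The 0 called higher rests on limma, in which Zic5 and Grhl2 passed the p threshold without reaching 2-fold, with voom on recovered reads giving the same count of 0. All 7 genes had libraries that did not overlap between the groups in both comparisons, a state that held for 84.2% of all genes in LIF-ESCs and 83.9% in OSM-ESCs, so it says little about these genes. The 7 genes had a median log2 difference of -0.65 with LIF and of -0.39 with OSM, beside all-gene medians of 0.17 and 0.18. Rescaling by the median ratio left the counts of the 7 at 3 and 3 and evened out the background, which with LIF became 10.5% called higher and 10.2% lower, and with OSM 11.1% and 10.2%. Without the fold limit the rescaled background was 34.5% higher and 33% lower, then 34.4% and 32.9%. These 2 comparisons share the -LIF-ESCs libraries.

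**Figure D2:**
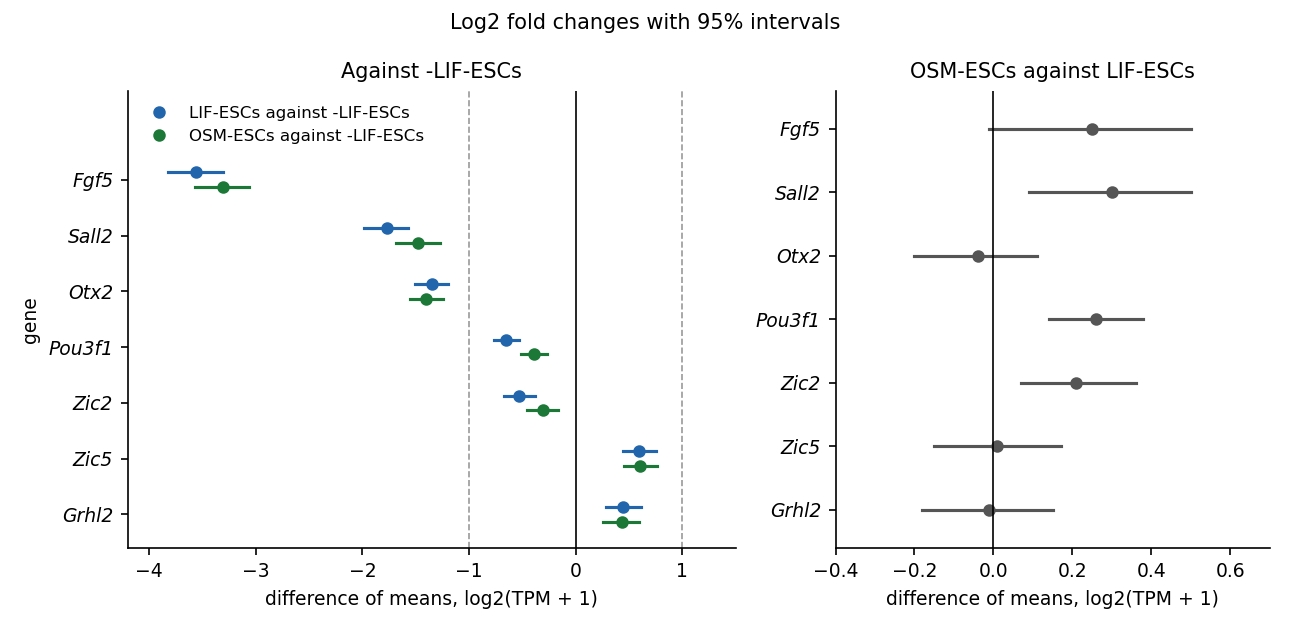
Difference of group means on the log2(TPM + 1) scale (horizontal axis) for the 7 genes, with 95% intervals from limma as bars. The left panel sets LIF-ESCs and OSM-ESCs against -LIF-ESCs, with dashed lines at a 2-fold change, and Fgf5, Sall2 and Otx2 lie past the lower line. The right panel sets OSM-ESCs against LIF-ESCs on an expanded axis, where all values lie between -0.04 and 0.30.

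**Figure D3:**
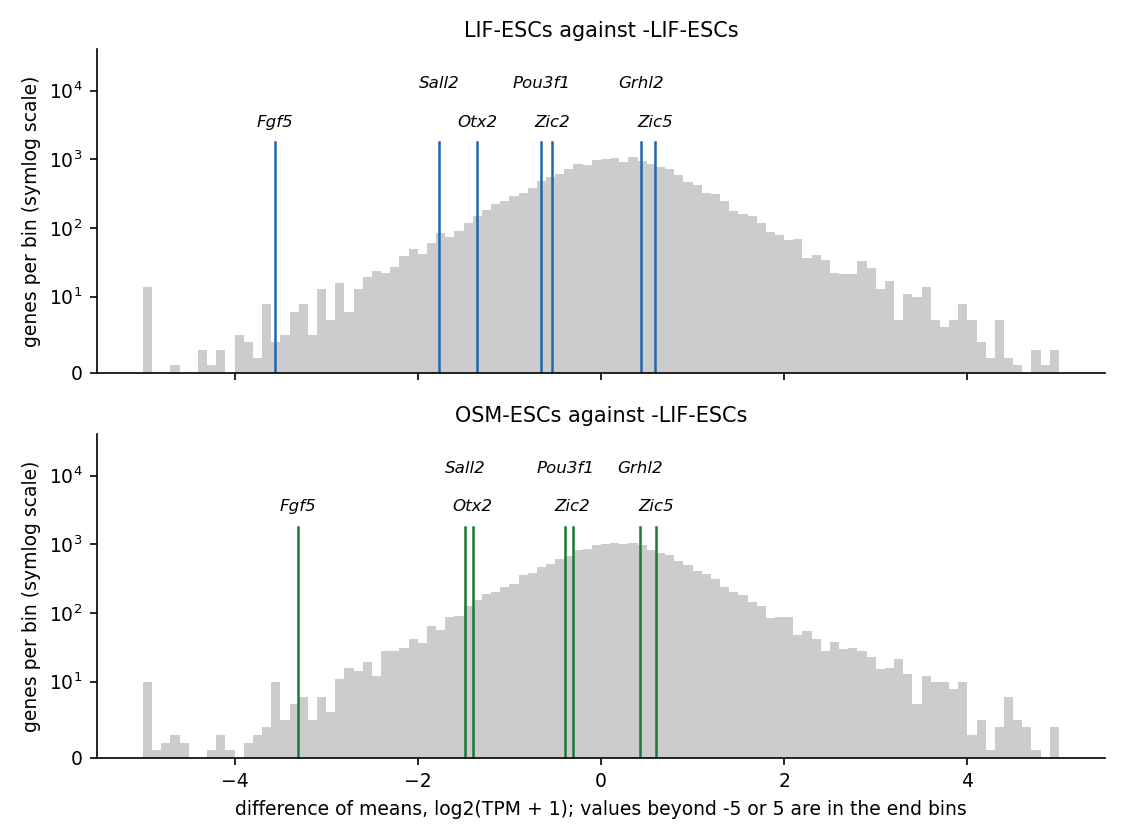
Number of genes per bin (vertical axis, symmetric log scale) by difference of means in log2(TPM + 1) (horizontal axis, values beyond the ends placed in the end bins) for all 18556 genes tested, in LIF-ESCs (top) and OSM-ESCs (bottom) against -LIF-ESCs, with vertical lines at the 7 genes. Fgf5, at -3.56 in LIF-ESCs and -3.31 in OSM-ESCs, lies in the lower tail in each, and Pou3f1, Zic2, Zic5 and Grhl2 lie within the body of the distribution.

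OSM-ESCs and LIF-ESCs differed little in these genes. With limma, 0 of the 7 genes were called and 0 passed the adjusted p without a fold limit. Over all genes, 0.0808% were called in either direction and 0.593% passed the adjusted p. Of the 7, 4 (Fgf5, Pou3f1, Zic2 and Sall2) had libraries that did not overlap, all higher in OSM-ESCs, where 47.1% of all genes did not overlap in either direction and 26.3% did so with the higher values in OSM-ESCs. These are genes that were highest in -LIF-ESCs, so that OSM-ESCs lay between the other groups in each. The log2 difference was 0.26 for Pou3f1 (95% interval 0.14 to 0.38, limma adjusted p = 0.1), 0.21 for Zic2 (95% interval 0.07 to 0.36, limma adjusted p = 0.19) and 0.30 for Sall2 (95% interval 0.09 to 0.50, limma adjusted p = 0.196). For Fgf5 it was 0.25 (95% interval -0.01 to 0.50, limma adjusted p = 0.337). Fgf5 rested on 12 to 26 reads a library here, and counting error alone gave its log2 ratio an SE of 0.35. With voom on the recovered reads, an alternative to the TPM scale, Pou3f1 (0.27, limma voom adjusted p = 0.00667) and Zic2 (0.22, limma voom adjusted p = 0.0358) passed the adjusted threshold, still below 2-fold. Sall2 (0.38, limma voom adjusted p = 0.0896) and Fgf5 (0.58, limma voom adjusted p = 0.511) did not. The share of all genes that passed with voom is not given here. The 0.593% above belongs to the TPM fit.

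Otx2, Zic5 and Grhl2 overlapped between the cytokine groups. Their log2 differences were -0.04 (95% interval -0.20 to 0.11, limma adjusted p = 0.796), 0.01 (95% interval -0.15 to 0.17, limma adjusted p = 0.964) and -0.01 (95% interval -0.18 to 0.15, limma adjusted p = 0.953). A p above the threshold does not show that the cytokines act alike, and the farthest end of these 3 intervals is -0.20 in log2 units on this scale. The median of the 7 was 0.21, beside 0.01 for all genes. A list of 15 tested fibroblast genes, which feeder cells express, also lay above its LIF-ESCs level in OSM-ESCs, with a median of 0.44 and 5 genes past the adjusted p. Their summed level was 1104 to 1108 TPM against 711 to 716 TPM, and the part of fibroblast RNA in the 7 genes' differences was not tested.

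Close relatives of the 7 genes were mostly called higher in the cytokine groups. Of 14 paralogs listed, 7 passed the expression filter, of which LIF-ESCs had 6 called higher and 0 lower. OSM-ESCs had 5 called higher and 1 lower. The median log2 difference of these paralogs from -LIF-ESCs was 1.41 with LIF and 1.43 with OSM. Zic1 and Sall3 were below 1 TPM in -LIF-ESCs. They passed the filter only through cytokine libraries, where they were higher, which tilts the counts and medians. Levels of Zic4, Pou3f3, Pou3f4 and Otx1 were too low to be tested, and Pou3f2, Crx and Fgf6 were not found by gene symbol.

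In the Sall family, Sall4, a core pluripotency factor, had a mean of 56.3 TPM in -LIF-ESCs, 144 TPM in LIF-ESCs and 135 TPM in OSM-ESCs. Sall1 went from 48.5 TPM to 144 and 134 TPM. Sall3 went from 0.93 TPM to 9.24 and 10.3 TPM. The log2 differences from -LIF-ESCs were 1.34 and 1.24 for Sall4, 1.55 and 1.45 for Sall1, and 2.41 and 2.55 for Sall3, all called higher while Sall2 was called lower.

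In the Zic family, Zic1, an early neural gene, had 2 reads in each -LIF-ESCs library and between 87 and 147 reads in the cytokine libraries, and its log2 differences on the log2(TPM + 1) scale were 1.41 and 1.52. Zic1 and Zic5 were thus higher in the cytokine groups, and Zic2 was lower.

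In the Grhl family, Grhl1 went from 2.65 TPM to 9.35 and 8.87 TPM (log2 differences 1.5 and 1.43), in the direction of Grhl2. Grhl3 went from 13.5 TPM to 6.45 and 5.81 TPM. It was the only paralog of those 7 lower in the cytokine groups, by -0.96 in LIF-ESCs (limma adjusted p = 0.00018, short of 2-fold on this scale) and by -1.09 in OSM-ESCs, where it was called. Fgf4, a growth factor of the naive epiblast, went from 63.8 TPM to 138 and 113 TPM while Fgf5 fell.

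**Figure D4:**
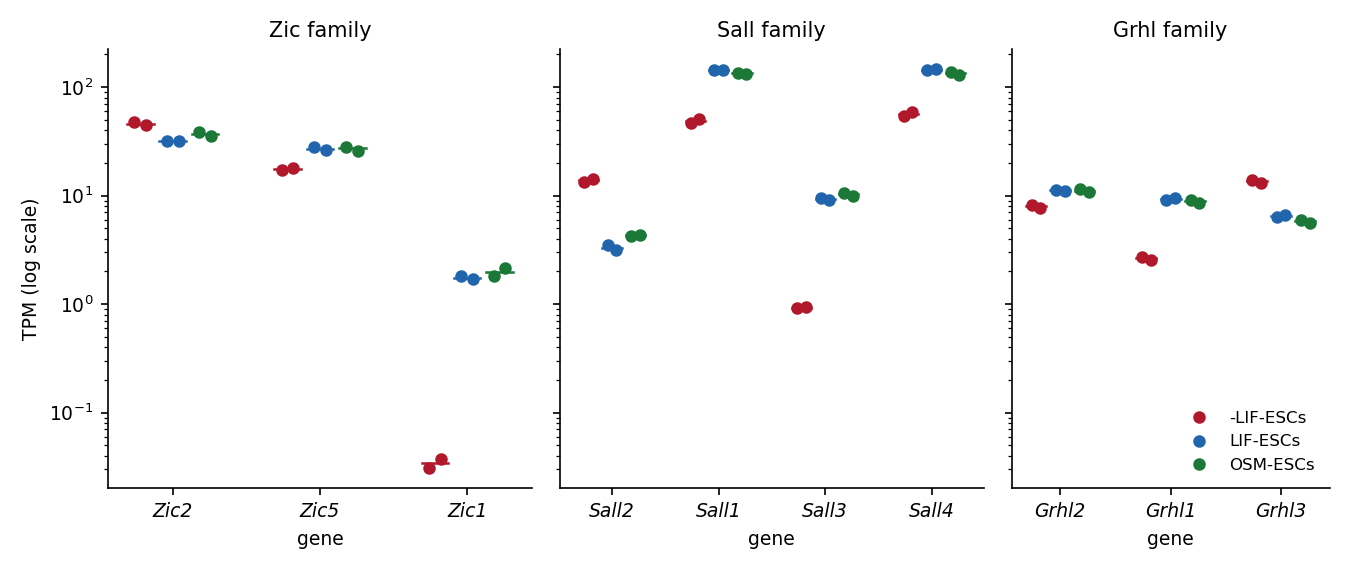
TPM on a log axis (vertical) in the 2 libraries (points) of -LIF-ESCs, LIF-ESCs and OSM-ESCs for named genes of the Zic, Sall and Grhl families, with the group mean as a short line. Sall1, Sall3, Sall4 and Zic1 are higher in the cytokine groups where Sall2 and Zic2 are lower, and Grhl1 is higher where Grhl3 is lower.

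Other genes of the formative and primed epiblast also went in both directions. Of 23 listed, 22 were tested. LIF-ESCs had 6 of them called higher and 4 called lower, and OSM-ESCs had 5 and 4. Their medians were 0.25 and 0.31, above the all-gene medians, and their summed level was 1272 to 1295 TPM in -LIF-ESCs, 1813 to 1859 TPM in LIF-ESCs and 1825 to 1835 TPM in OSM-ESCs. Among those called higher in LIF-ESCs, Epha2, an ephrin receptor, went from 32.7 TPM to 303 TPM in LIF-ESCs and 294 TPM in OSM-ESCs. Mycn, a growth-promoting transcription factor, rose by 1.70 and 1.81 in log2 units. Etv4, an ETS factor, rose by 2.38 and 2.28. Tcf15, a bHLH factor, rose by 1.18 in LIF-ESCs, and its OSM-ESCs difference of 0.97 fell short of 2-fold. The 4 called lower, named after their values were seen apart from Fgf8, were Fgf8 (-5.73 in LIF-ESCs and -5.44 in OSM-ESCs), Wnt8a (-2.85 and -2.22), Cldn6 (-1.58 and -1.74) and Sox11 (-1.21 and -1.11). Fgf8 and Wnt8a, a growth factor and a Wnt ligand, are also expressed in the primitive streak. Fgf8 was below 1 TPM in all cytokine libraries and passed the filter only through -LIF-ESCs.

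Markers of other cell types differed between the same groups, and their part in the differences of the 7 genes was not tested. Some genes stood in more than a single list. All 10 primitive streak and mesoderm genes were tested and 9 were called lower in both comparisons, with a summed level of 184 to 189 TPM in -LIF-ESCs, 5.02 to 6.63 TPM in LIF-ESCs and 5.4 to 6.3 TPM in OSM-ESCs. Among them T, the brachyury factor, went from 60.7 TPM to 0.78 and 0.923 TPM, and Wnt3 went from 20.9 TPM to 0.57 and 0.772 TPM. Msgn1 had 0 reads in all 4 cytokine libraries. Fgf8, Wnt3, Mixl1, Gsc, Mesp1, Evx1 and Msgn1 were below 1 TPM in all 4 of these. They passed the filter only through -LIF-ESCs, where they were high, which tilts the count called lower. The list medians of -1.38 with LIF and -1.58 with OSM ran in the direction of Fgf5, Otx2 and Sall2.

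Of 16 simple epithelium genes, 8 were called lower and 0 higher in both comparisons, with sums of 3829 to 3861 TPM in -LIF-ESCs, 863 to 878 TPM in LIF-ESCs and 818 to 838 TPM in OSM-ESCs. Krt8 went from 982 TPM to 12.7 and 18.3 TPM, and Cdh1, E-cadherin, from 446 TPM to 222 and 216 TPM. Without the fold limit, 12 of the 16 were lower in each comparison, while 2 were higher with LIF and 3 with OSM, as was Grhl2, an epithelial regulator. These genes, named after their values were seen, were Ap1m2 (0.58 and 0.50), Esrp1 (0.33 and 0.33) and, with OSM alone past the adjusted p, Ovol2 (0.21 and 0.38). Their differences less the all-gene median were 0.41 and 0.31, 0.17 and 0.15, and 0.04 and 0.19. Of 6 tested trophoblast genes, 5 were called lower in LIF-ESCs and 3 in OSM-ESCs (5 in OSM-ESCs after rescaling or with voom), and Hand1 went from 27.5 TPM to 0.407 and 0.14 TPM. Their sums were 82.3 to 84.7 TPM in -LIF-ESCs, 28.6 to 30.1 TPM in LIF-ESCs and 30.7 to 31.7 TPM in OSM-ESCs. Hand1 and Cdx2 were below 1 TPM in all cytokine libraries and passed the filter only through -LIF-ESCs. Median log2 differences with LIF and with OSM were -0.90 and -0.97 for the epithelium list and -1.35 and -1.3 for the trophoblast list.

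Other lists had more genes called higher than lower in the cytokine groups, the direction of Zic5 and Grhl2. Of 12 naive genes, LIF-ESCs had 8 called higher and 1 called lower, and OSM-ESCs had 7 and 1. Their sums were 1027 to 1041 TPM in -LIF-ESCs, 2358 to 2411 TPM in LIF-ESCs and 2074 to 2114 TPM in OSM-ESCs. Klf4 rose by 2.81 and 2.67 and Esrrb by 1.43 and 1.19 in log2 units. Of the 6 core genes, 2 were called higher in LIF-ESCs and 3 in OSM-ESCs (1 in each after rescaling or with voom), and Pou5f1 (Oct4) had means of 545 TPM in -LIF-ESCs, 1165 TPM in LIF-ESCs and 1186 TPM in OSM-ESCs. Genes of these lists that went the other way, named after their values were seen, were the naive gene Dppa3, called lower with log2 differences of -1.41 and -1.31, and the core gene Nanog. Nanog had means of 433 TPM in -LIF-ESCs, 290 TPM in LIF-ESCs and 261 TPM in OSM-ESCs, lower by less than 2-fold, with log2 differences of -0.58 (limma adjusted p = 0.000144) and -0.73 (limma adjusted p = 6.37e-05). List medians with LIF and with OSM were 1.58 and 1.32 for the naive genes and 0.78 and 0.78 for the core genes.

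Of 8 tested neural genes, 4 were called higher in each comparison, and LIF-ESCs had 1 called lower (Nes, named after its values were seen, -1.26 with LIF and -0.84 with OSM) where OSM-ESCs had 0. The sums were 66.0 to 68.2 TPM in -LIF-ESCs, 95.6 to 99.1 TPM in LIF-ESCs and 104 to 109 TPM in OSM-ESCs. Olig2, Sox1, Pax6 and Zic1, the 4 called higher, were below 1 TPM in -LIF-ESCs. They passed the filter only through cytokine libraries, where they were high, which tilts that count. Olig2 went from 0.0402 TPM to 19.6 and 22.4 TPM, whereas Otx2, which also marks neural tissue, fell. Of 12 primitive and visceral endoderm genes listed, 7 were tested, and 5 were called higher in LIF-ESCs and 3 in OSM-ESCs. Gata6, Sox7 and Cubn, called higher in LIF-ESCs, were below 1 TPM in -LIF-ESCs and passed the filter only through cytokine libraries. Sums were 11.2 to 12.3 TPM in -LIF-ESCs, 32.1 TPM in both LIF-ESCs libraries and 20.3 to 20.7 TPM in OSM-ESCs. Foxa2, Ttr, Afp, Apoa1 and Hnf4a were too low to be tested. Of these, Ttr had its lowest mean in -LIF-ESCs and the others their highest there, all below 1 TPM. Ttr was at 0 in -LIF-ESCs and at most 0.175 TPM in the cytokine libraries. Afp was at 0 in both cytokine groups and at most 0.131 TPM (5 reads) in -LIF-ESCs, so both genes were at the floor throughout. Of the 15 tested fibroblast genes, 12 were called higher in each comparison, while 1 (Tagln, named after its values were seen, -1.07 with LIF) was called lower with LIF and 0 with OSM, and their sum was 471 to 499 TPM in -LIF-ESCs. Acta2, smooth muscle actin, went from 30.7 TPM to 226 and 375 TPM, and Col1a1 from 23.9 TPM to 87.5 and 136 TPM. Col3a1, Postn, Lum, Dcn and Prrx1, also called higher, were below 1 TPM in -LIF-ESCs and passed the filter only through cytokine libraries. The medians with LIF and with OSM were 1.15 and 1.17 for the neural list, 1.35 and 0.45 for the endoderm list and 2.27 and 2.75 for the fibroblast list.

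**Figure D5:**
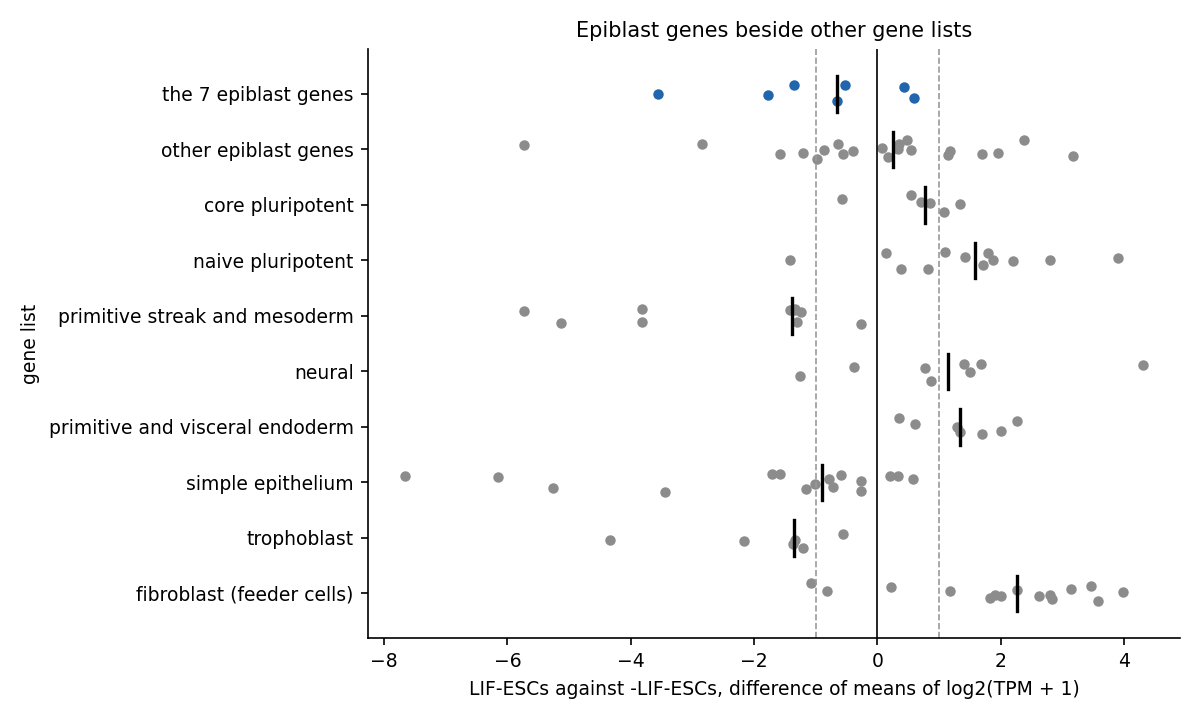
Difference of LIF-ESCs from -LIF-ESCs in log2(TPM + 1) means (horizontal axis) for the 7 epiblast genes and each tested gene of the other lists (points, a list per row), with list medians as black marks and a 2-fold difference as dashed lines. The 7 genes spread to both sides of 0, the streak list lies below 0 with a median of -1.38, and the naive list lies mostly above 0 with a median of 1.58.

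Nearness in pattern was the Euclidean distance over the 6 libraries on centred log2(TPM + 1) values. For each of the 7, the 2 nearest genes were taken among tested genes with a symbol of their own (no Gm, Rik or pseudogene names). For Fgf5 they were Gprc5c (distance 0.15), with means of 26.2 TPM in -LIF-ESCs, 1.46 TPM in LIF-ESCs and 1.76 TPM in OSM-ESCs, and H19 (0.21), an imprinted RNA, with 829, 64.3 and 72.8 TPM. Otx2 was nearest to Mrpl14 (0.08) and to Mest (0.08), another imprinted gene, with means of 118, 45.1 and 44.9 TPM. Sall2 was nearest to Rasgrp1 (0.11) and Bok (0.15). Pou3f1 was nearest to Gli3 (0.05) and Grsf1 (0.07), and Zic2 to Uqcr11 (0.07) and Pxdn (0.07). Zic5 was nearest to Bcor (0.03), a corepressor with means of 17.0, 26.0 and 26.4 TPM, and to Dnajb6 (0.04). Grhl2 was nearest to Dnajc11 (0.04) and Phf12 (0.04). Distances are shorter for genes with small changes, so they do not rank the 7 genes against each other.

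Overlapping annotated transcripts could share reads with 3 of the 7 genes, since the strand setting of the counting is not given in the sources used here. Otx2 is overlapped on the opposite strand by the noncoding Otx2os1, which had at most 11 reads in a library where Otx2 had 459 or more, and on its own strand by Gm49154, which had at most 5. Pou3f1 has the antisense Gm2164, which had 1 to 19 reads a library where Pou3f1 had 788 or more. Gm2164 was at 3.96 and 2.03 TPM in -LIF-ESCs, 1.51 and 0.523 TPM in LIF-ESCs, and 0.233 and 2.14 TPM in OSM-ESCs. Its log2 differences from -LIF-ESCs were -0.99 (limma adjusted p = 0.151) in LIF-ESCs and -0.98 (limma adjusted p = 0.154) in OSM-ESCs. Grhl2 has the antisense Gm16136, with 42 to 94 reads a library and log2 differences of 0.09 (limma adjusted p = 0.726) and 0.49 (limma adjusted p = 0.0841), as well as Gm16137 with at most 4 reads and the pseudogene Gm16138 with at most 1. No annotated gene overlaps Fgf5, Zic2, Zic5 or Sall2.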

How the data were processed

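RNA-seq was analysed from 6 libraries, 2 per group. Per the submitters' processing notes and the study's methods, the authors trimmed reads with Trimmomatic, aligned them to mm10 with HISAT2 and counted them with featureCounts. They deposited 1 table of TPM values per gene and tested counts with DESeq2, a step not repeated here. The annotation and strand setting are not given in the sources used here.

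The 18556 genes that reached 1 TPM in 2 or more libraries were fitted on log2(TPM + 1) with limma 3.58.1 (R 4.3.3), all 3 groups in 1 fit, with a mean-variance trend and Benjamini-Hochberg adjustment over all of them. The fit has 3 residual degrees of freedom. Calls needed an adjusted p below 0.05 and a 2-fold difference. An exact permutation test of 2 against 2 cannot go below p = 0.333 and was not used. Reads were recovered as whole multiples of a step per library, using exon lengths from GENCODE M21 on GRCm38, which holds 28405 of the symbols (99.4%) a single time, and 95.4% of values were whole within 0.02 read. They were tested with voom over 17272 genes. Promoter windows came from RefSeq (GRCm38.p6), in which 4 of the 7 genes matched. Figures were drawn with matplotlib 3.10.9.

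The 7 genes and all lists were chosen with earlier results of these data known, and 1 gene of 2 lists is not reported here. Named genes were the 7 genes, their paralogs and overlapping transcripts, the 2 nearest genes in pattern, and up to 4 genes per list with the highest mean TPM among those called in the list's more frequent direction in LIF-ESCs. Over all genes, the 2 libraries of each group were further apart than counting noise (mean chi-square per gene 1.97 to 3.4), so none was counted as a repeat of another. For the 7 genes the value ran from 0.00117 (Pou3f1 in LIF-ESCs) to 2.84 (Zic2 in -LIF-ESCs). These values cannot show whether the libraries were separate cultures. Alternatives were the pseudocount, the filter, no trend, fitting 2 groups at a time, library rescaling, voom, the replicate block, no fold limit and leaving out each library. Self-tests ran on data with known changes.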

Additional observations from a re-analysis of the deposited data

How the results depend on the processing

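The count of the 7 genes called stayed at 3, 3 and 0 (LIF-ESCs and OSM-ESCs against -LIF-ESCs, then OSM-ESCs against LIF-ESCs) with another pseudocount, filter, trend setting, set of groups fitted, library rescaling, voom and each library left out (3 to 3, 3 to 3 and 0 to 0). Without the fold limit it was 7 and 7 against -LIF-ESCs. All 7 genes kept their direction against -LIF-ESCs under the alternatives run, Fgf5 between -5.0 and -3.49 in LIF-ESCs and between -4.43 and -3.29 in OSM-ESCs, and Grhl2 between 0.29 and 0.49 and between 0.26 and 0.47. Between OSM-ESCs and LIF-ESCs, 3 genes with differences near 0 changed sign. With each library left out in turn, Otx2 ran from -0.10 to 0.02 (without LIF-ESCs replicate 2), Zic5 from -0.05 (without OSM-ESCs replicate 1) to 0.07, and Grhl2 from -0.04 to 0.02 (without OSM-ESCs replicate 2). Zic5 was also -0.03 without LIF-ESCs replicate 2 and -0.0024 with libraries rescaled to a common median ratio. These values lie inside the intervals given for each gene, and the cause was not tested. Leaving out a library leaves 1 sample in an arm, which is assumed to vary like the other groups.

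Replicate numbers did not pair the samples, since deviations of same-numbered libraries had correlations of -0.043 (LIF-ESCs and -LIF-ESCs), -0.023 (OSM-ESCs and -LIF-ESCs) and 0.027 (OSM-ESCs and LIF-ESCs). With the replicate block, 3, 3 and 0 of the 7 genes were called. For the other gene lists, 410 recomputed counts stayed within 1.5 times of the reported count and 40 did not. With 2 libraries per group, and 12 to 26 reads for Fgf5 in the cytokine libraries, its OSM-ESCs to LIF-ESCs ratio is bounded only loosely by these data.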
